A study of Mus musculus with 2 samples.

Results

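C1q macrophages of LLC tumors chosen by a rule on their transcripts were 172 of the 6630 cell barcodes sequenced, 152 of them from Smad3-WT tumors and 20 from Smad3-KO tumors. Members were chosen by their own UMI counts (UMIs are unique molecular tags, each standing for 1 captured transcript). A cell was taken when C1qa, C1qb and C1qc together had at least 3 UMIs. It also had to have at least 200 genes, more than 500 UMIs and under 10% mitochondrial UMIs. Cells in which S100a8 and S100a9 made up 1% or more of the UMIs, or with 3 or more UMIs of the carcinoma genes Krt8, Krt18 and Rhox5, were left out. So were cells with any UMI of Cd79a or Cd3e, or with 3 or more of the cycling genes Mki67, Top2a, Ube2c and Birc5. The rule held 1 further limit, mentioned with the processing, so the members are not all cells with C1q in these libraries. The levels of all these genes follow from the rule, so where any of them enter a value below it is a description only.

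The study asked how the loss of Smad3, which carries signals of TGF-beta receptors to the nucleus, changes tumor-associated neutrophils. Single cells were sorted as CD11b+Ly6G+ from subcutaneous tumors of LLC, a mouse lung carcinoma line, and sequenced with a 5′ kit. Each genotype was 1 library made from 8 pooled tumors, of Smad3-WT or Smad3-KO mice on the C57BL/6 background (C57BL/6 J in the methods of the study) and 8 to 12 weeks old. The methods give mice of both sexes, which the Xist counts below did not show for the Smad3-WT pool. Cells of a library cannot be traced to a tumor. The knockout removes exon 8 of Smad3 and disrupts exon 7. Tags of a 5′ library lie near the start of a transcript, so Smad3 UMIs do not check the genotype. In all, 23951400 UMIs were counted over 4116 barcodes of Smad3-WT, and 4214290 UMIs over 2514 barcodes of Smad3-KO. With 1 library per genotype no replicate error exists, and neither the genotypes nor the classes of cells were tested against each other. Levels are in CPM, the UMIs of a gene summed over the cells of a class and scaled to a class total of 1000000. Intervals are at the 95% level and cover counting error only, since cells of 1 library are not replicates.

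C1qa, C1qb and C1qc encode the chains of C1q, the recognition part of the classical complement pathway, which macrophages make themselves and use to tag dying cells and immune complexes. Macrophages of tumors arise largely from blood monocytes, and on the way they lose Ly6c2 and Ccr2 and gain scavenger receptors, lysosomal enzymes and apolipoproteins. MHC class II molecules display peptides to CD4 T cells and are made by macrophages and dendritic cells.

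The members were 3.90% of the 3902 Smad3-WT cells that passed the quality limits (exact interval 3.31 to 4.55%) and 0.822% of the 2433 Smad3-KO cells (0.503 to 1.27%). They were deep cells in Smad3-WT, with a median of 4813.5 UMIs and 1764.5 genes, against 2402 UMIs and 1099 genes in Smad3-KO. Their summed UMIs were 749610 and 53237, so the Smad3-KO levels rest on far fewer tags. Shares of sorted cells depend on the sort, and fewer cells of a type cannot be told apart from a gate that took fewer of them. At the C1q limit, 7 Smad3-WT members had 3 UMIs and 28 cells just outside had 2, and in Smad3-KO there were 6 of each. The limit therefore does not fall in a gap of the counts.

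Few of these cells held a transcript of the sort antigen Ly6G. Ly6g, which encodes the neutrophil antigen of the gate, had 2 UMIs in 2 of 152 Smad3-WT members and 0 UMIs in the 20 Smad3-KO members, which by the exact interval allows up to 16.8% of cells with a UMI and sets no limit on cells that express it. Itgam, which encodes CD11b, had UMIs in 103 of 152 Smad3-WT members (67.8%) and in 6 of 20 Smad3-KO members. In cells that had S100a8 and S100a9 at 1% or more of their UMIs, Ly6g had UMIs in 33 of 1781 in Smad3-WT (1.85%, at a median of 791 UMIs per cell) and in 114 of 1027 in Smad3-KO (11.1%, median 1135), so most cells of the neutrophil kind had none. Xist, which is transcribed from the inactive X of females, had 0 UMIs in the Smad3-WT members and 19 UMIs in 9 of the 20 Smad3-KO members. Over all cells past the quality limits it had UMIs in 7 of 3902 in Smad3-WT (median 1770.5 UMIs) and 839 of 2433 in Smad3-KO (median 1199 UMIs). Genotype and sex of the pooled mice therefore cannot be told apart in any comparison between the libraries. The libraries shared 73 barcodes, and 1 Smad3-WT member carried a shared barcode.

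Macrophage genes that the rule did not use were present in these cells. All 11 macrophage markers examined were detected in both libraries, and the 8 that the rule did not use summed to 5710 CPM in Smad3-WT and 12736 CPM in Smad3-KO. Mrc1, the mannose receptor CD206, was at 644 CPM in Smad3-WT and 469.6 CPM in Smad3-KO, against 138 CPM in Smad3-WT monocytes and 91.8 CPM in Smad3-WT dendritic cells. Apoe, the apolipoprotein that macrophages secrete, was at 1861 and 9768 CPM, against 566 CPM in Smad3-WT monocytes and 61.2 CPM in dendritic cells. Adgre1, which encodes F4/80, was at 159 and 432 CPM, against 45.6 CPM in Smad3-WT monocytes. Mertk, a receptor for engulfing dying cells, had only 22 UMIs in Smad3-WT members, at 29.3 CPM, and 7 UMIs in Smad3-KO members. Summed over the class, Mrc1, Apoe and Adgre1 were higher in the members than in monocytes or dendritic cells of the same library. Not every subcluster of the members, described below, had all of them higher. The 60 Smad3-WT cells of subcluster 1 had Apoe at 387 CPM and Adgre1 at 31.4 CPM, below Smad3-WT monocytes. Their Mrc1, at 258 CPM, was above. In Smad3-WT cells of subclusters 2 and 3, Apoe was at 3974 and 1250 CPM and Adgre1 at 351 and 93.1 CPM, above Smad3-WT monocytes. Csf1r and Cd68 were at 436 and 634 CPM in Smad3-WT members and did not separate them from Smad3-WT monocytes, which had 341 and 776 CPM. Pf4, a chemokine of platelets and of some macrophages, was at 1645 CPM in Smad3-WT and 300.5 CPM in Smad3-KO members, but Smad3-WT monocytes had it at 1247 CPM.

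**Figure D1:**
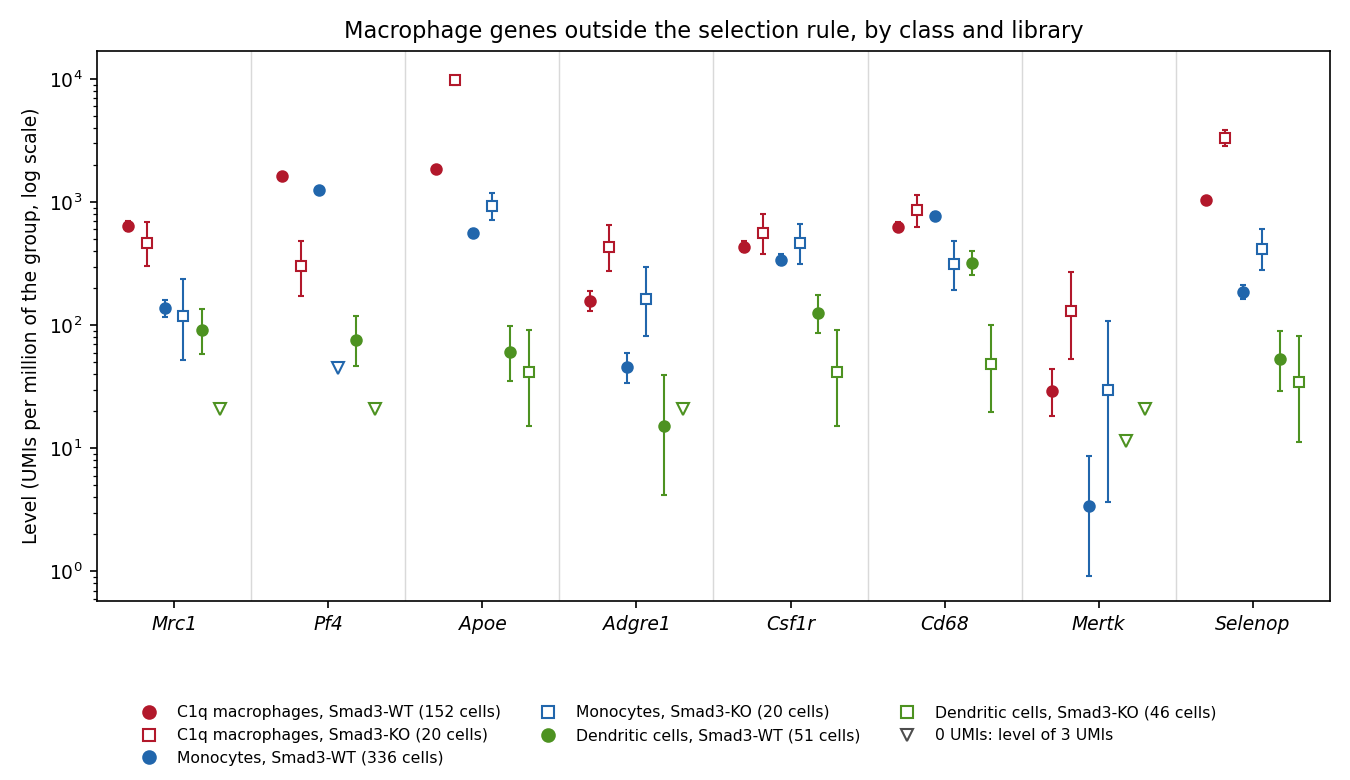
Levels of 8 macrophage genes that the rule did not use, in CPM of the class on a log scale, for C1q macrophages, monocytes and dendritic cells; filled circles are Smad3-WT, open squares Smad3-KO, bars exact Poisson intervals, and open triangles mark the level of 3 UMIs where there were 0. Mrc1 stood at 644 CPM in Smad3-WT C1q macrophages and 138 CPM in monocytes, while Pf4 was at 1645 and 1247 CPM in them.

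Marker sums of other cell types ran from 0 CPM for mast cells and basophils to 1485 CPM for fibroblasts and 1642 CPM for neutrophils, S100a8 and S100a9 included, in Smad3-WT members, where Mrc1 alone was at 644 CPM. Dendritic cell markers summed to 28.0 CPM in Smad3-WT members, with Flt3, Zbtb46, Xcr1, Cd209a and Ccr7 at 0, and T or NK cell markers to 20.01 CPM. In Smad3-KO members they summed to 113 and 188 CPM. B cell markers summed to 45.4 CPM in Smad3-WT and 207 CPM in Smad3-KO members, mostly Ighm. Monocyte markers summed to 1129.9 CPM in Smad3-WT and 1108 CPM in Smad3-KO members, against 4486 CPM in Smad3-WT monocytes, which were selected on Ly6c2 and Ccr2. At least 2 UMIs of them were in 84 of the 152 members of Smad3-WT and in 8 of the 20 members of Smad3-KO. The 5 monocyte markers that no class was selected on summed to 512 and 582 CPM in the members and 2367 CPM in Smad3-WT monocytes. Neutrophil markers other than S100a8 and S100a9 summed to 588 CPM in Smad3-WT members, where 40 of 152 cells had at least 2 UMIs of them, and to 188 CPM in Smad3-KO members. Fibroblast markers summed to 1485 CPM in Smad3-WT and 1954 CPM in Smad3-KO members and came from very few cells. Of 1053 collagen UMIs in Smad3-WT members, 1026 were in 4 cells, and all 102 in Smad3-KO members were in 1 cell. Collagen levels of the class are therefore those of single cells, and no comparison of them is given.

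Monocytes were selected on at least 3 UMIs of Ly6c2 and Ccr2 and under 3 of C1q, 336 cells in Smad3-WT and 20 in Smad3-KO. In Smad3-WT 224 of 4459 genes were higher in the C1q macrophages by more than 2-fold (5.02%) and 258 were lower (5.79%). Ccl8 stood far apart, at 2713 CPM in the macrophages and 26.2 CPM in the monocytes, a ratio of 104 (72.8 to 153). In Smad3-KO it was at 1484 and 29.99 CPM, with 79 and 2 UMIs, a ratio of 49.5 (13.25 to 416). Timp2, an inhibitor of matrix metalloproteinases, had a ratio of 19.0 (11.6 to 33.3), with 205 and 17 UMIs. Stab1, a scavenger receptor, had 6.21 (4.81 to 8.11), the tetraspanins Cd81 and Cd63 had 6.70 and 4.44, and Selenop, a carrier of selenium, 5.54 (4.76 to 6.46). Pltp, which transfers phospholipids, had 5.14, Mrc1 4.68 and the membrane protein Ms4a7 4.35. Of 15 scavenger and engulfment receptors measured 6 were higher and 1 was lower. Folr2, a folate receptor of resident-type macrophages, was at 168 against 7.60 CPM, a ratio of 22.1 (11.3 to 49.5), and Gas6, a ligand that bridges dying cells to engulfment receptors, at 104 against 3.38 CPM, with 4 UMIs in the monocytes.

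MHC class II genes set the members above Smad3-WT monocytes as well, with 7 of 11 higher by more than 2-fold, 1 lower and a median log2 ratio of 1.11. H2-Aa was at 4798 against 1446 CPM (ratio 3.32, 3.13 to 3.52), H2-Eb1, a class II beta chain, had a ratio of 3.61 (3.37 to 3.86), and Cd74, the invariant chain that escorts class II molecules, 2.50 (2.42 to 2.57). Itgax, which encodes CD11c, was at 66.7 against 22.0 CPM (3.04, 1.85 to 5.08). The 12 genes of MHC class I and peptide loading had 0 past 2-fold in either direction and a median log2 ratio of 0.12. In Smad3-KO the monocytes had as much H2-Aa as the macrophages, 10093 against 10049 CPM (ratio 0.996, 0.887 to 1.12). Siglech, a marker of plasmacytoid dendritic cells, was at 629.9 CPM over the 20 Smad3-KO monocytes, against 6.76 CPM in Smad3-WT monocytes. Of its 42 Smad3-KO UMIs, at least 2 were in each of 6 cells, and 1 cell had 10 or more. The part of plasmacytoid dendritic cells in the Smad3-KO values was not tested.

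Chemokines ran both ways against Smad3-WT monocytes. Of the CC chemokines 3 of 10 were higher by more than 2-fold and 1 was lower, and of the CXC chemokines 2 of 7 were higher and 4 were lower. Ccl5 and Cxcl9, which attract T cells, were at 363 and 529.6 CPM in the macrophages and 43.9 and 89.6 CPM in the monocytes, ratios of 8.26 (6.12 to 11.3) and 5.91 (4.76 to 7.40). Ccl5 came from few cells, with UMIs in 18 of 152 macrophages and 98 of the 272 UMIs in 1 of them, whereas Cxcl9 had UMIs in 55 cells. Ccl12, an attractant of monocytes, had a ratio of 3.41 (2.88 to 4.06). Ccl24, an attractant of eosinophils, was lower, at 56.0 against 240 CPM (0.233, 0.165 to 0.324). Ccl2, the main attractant of Ccr2 monocytes, was at 1579 against 2814 CPM (0.561, 0.525 to 0.600), within 2-fold. Hmox1, which breaks down heme, was at 629.7 against 1385 CPM (0.455, 0.410 to 0.504), and the iron and heme list had 1 of 10 genes higher, 2 lower and a median log2 ratio of -0.08. With every cell thinned to 1000 UMIs before the rule was applied, Ccl24 had a ratio of 1.13, Hmox1 1.01 and Itgax 0.640.

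Of the 5 monocyte markers that no class was selected on, all had ratios under 0.5 against Smad3-WT monocytes. Plac8, Chil3 and Hp, which are abundant in classical monocytes, had ratios of 0.216, 0.215 and 0.183, and Vcan, the proteoglycan versican, was at 77.4 against 432 CPM (0.179). Named here for being among the lowest ratios, Thbs1, a secreted matrix glycoprotein, was at 719 against 4666 CPM (0.154, 0.141 to 0.168). The neutrophil attractants Cxcl3 and Cxcl2 had ratios of 0.263 and 0.441. Of 24 interferon-stimulated genes, 13 were lower by more than 2-fold and 0 higher, with a median log2 ratio of -1.14. Isg15 was at 319 against 893 CPM (0.357). Ifi209 and Ifitm6, which are not on that list and are named for being among the lowest ratios, had 0.246 and 0.201. Glycolysis and hypoxia genes had 6 of 21 lower, 0 higher and a median of -0.88, and fewer were lower with the same thinning. Against Smad3-KO monocytes, Smad3-KO members had 0 of 5 such genes lower and 0 higher, with a median of 0.14, against -0.07 over all genes measured. Gapdh, at 5656 against 8767 CPM in Smad3-WT, stayed within 2-fold. Maf, a transcription factor of mature macrophages, did not differ by more than counting error (ratio 1.02, 0.874 to 1.19).

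**Figure D2:**
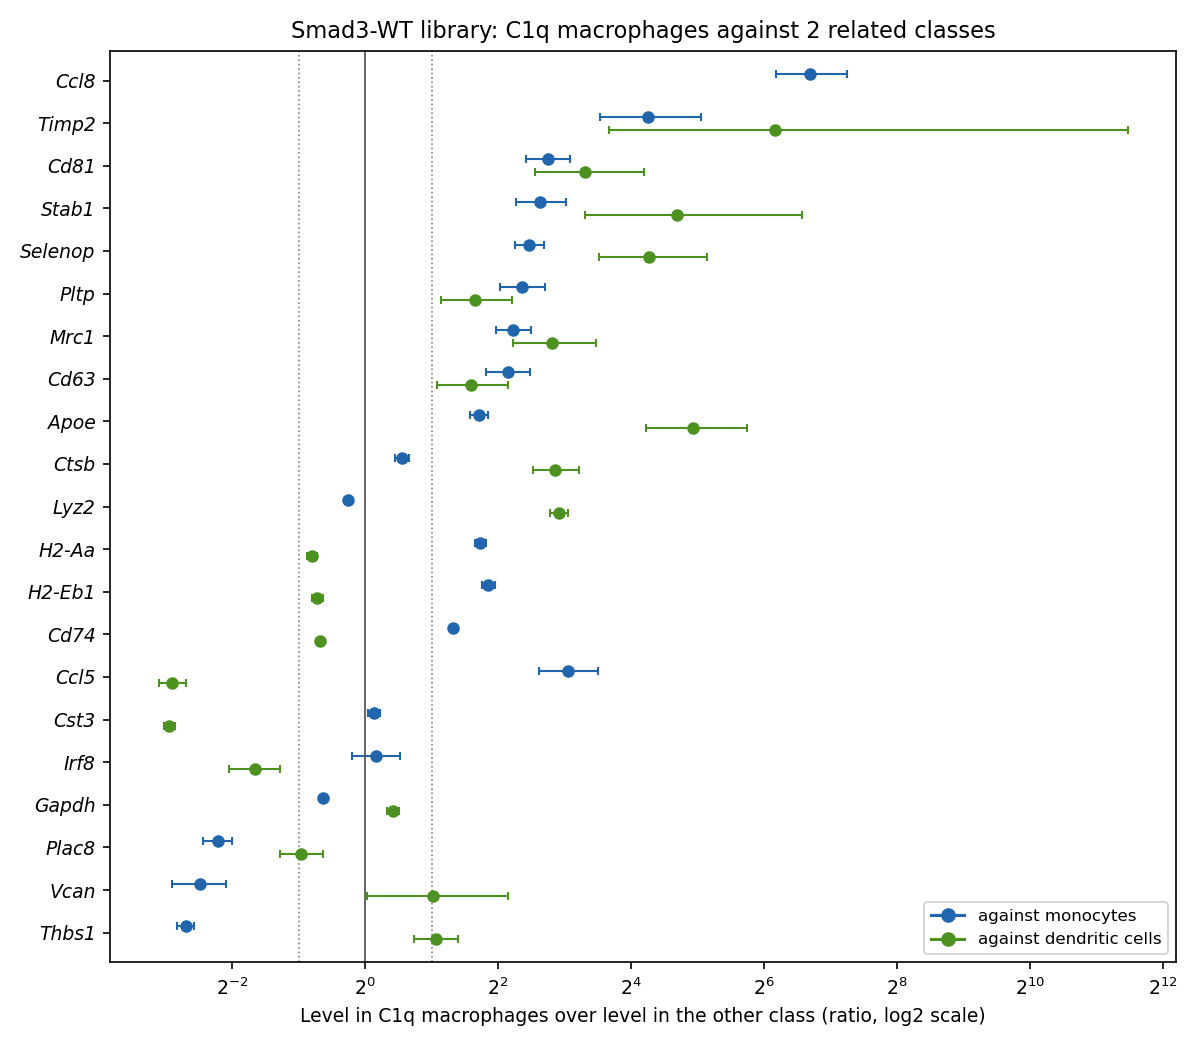
Ratio of the level in Smad3-WT C1q macrophages to that in monocytes or dendritic cells of the same library, on a log2 axis, with exact intervals; dotted lines mark 2-fold, and pairs with 0 UMIs in a class or under 50 UMIs are not drawn. H2-Eb1 lay above 2-fold against monocytes (3.61) and below 1 against dendritic cells (0.609), while Thbs1, Plac8 and Vcan had ratios of 0.154, 0.216 and 0.179 against monocytes.

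Dendritic cells, selected on at least 2 UMIs of Flt3, Zbtb46, Xcr1, Clec9a, Cd209a and Ccr7, were 51 in Smad3-WT and 46 in Smad3-KO. Of 2775 genes in Smad3-WT, 375 were higher in the macrophages by more than 2-fold (13.5%) and 178 lower (6.41%). Ccl8 had 0 UMIs in the 51 Smad3-WT dendritic cells. Taken against 3 UMIs over the group the macrophages were 236-fold higher, and the exact interval began at 192. Apoe was 30.4-fold higher (18.7 to 53.4). Stab1 and Maf were 25.7-fold and 24.1-fold higher, each with 4 UMIs in the dendritic cells. Ccl7 and Ccl12, which attract monocytes, had 18 and 2 UMIs there. Ccl7 had a ratio of 23.4 (14.8 to 39.7), and Ccl12 was at 574 against 7.65 CPM, with a ratio between 20.6 and 621. Many lysosomal and most Fc receptor genes were higher in the macrophages. Of 21 lysosomal proteases and enzymes 11 were higher and 1 was lower, with Ctsb at 2028 against 279 CPM and Lyz2, lysozyme, at 13935 against 1847 CPM. Of 6 Fc receptor genes 5 were higher and 0 lower, and of 8 iron and heme genes 6 and 0. All 10 matrix genes measured were higher, a count that fell to 6 without the members that carried markers of other lineages.

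In Smad3-WT, some MHC class II genes and most NF-kB genes were higher in the dendritic cells. MHC class II genes had 4 of 11 lower in the macrophages and 0 higher, with Cd74 at 14436 against 23023 CPM (ratio 0.627) and H2-Eb1 at 3675 against 6035 CPM (0.609), both within 2-fold. In Smad3-KO 1 of 5 MHC class II genes was higher in the macrophages and 0 lower. Their median log2 ratio was 0.28, against -0.20 over all genes measured. These 5 genes are too few to set against the 11 of Smad3-WT. Of 12 NF-kB genes and feedback inhibitors in Smad3-WT 10 were lower and 1 was higher, with Relb at 36.0 against 222 CPM. After thinning to 1000 UMIs before the rule, 0 NF-kB genes were lower by more than 2-fold among those that still had 50 UMIs. Fscn1, the actin bundler of migrating dendritic cells, was at 10.7 against 1189 CPM (0.00897, 0.00384 to 0.0179), and Ccl22 at 9.34 against 688 CPM. Cst3, an inhibitor of cathepsins, was at 2261 against 17428 CPM (0.130), and Ccl5 at 363 against 2704 CPM (0.134). Irf8 and Id2, transcription factors of dendritic cell development, had ratios of 0.317 and 0.382.

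**Figure D3:**
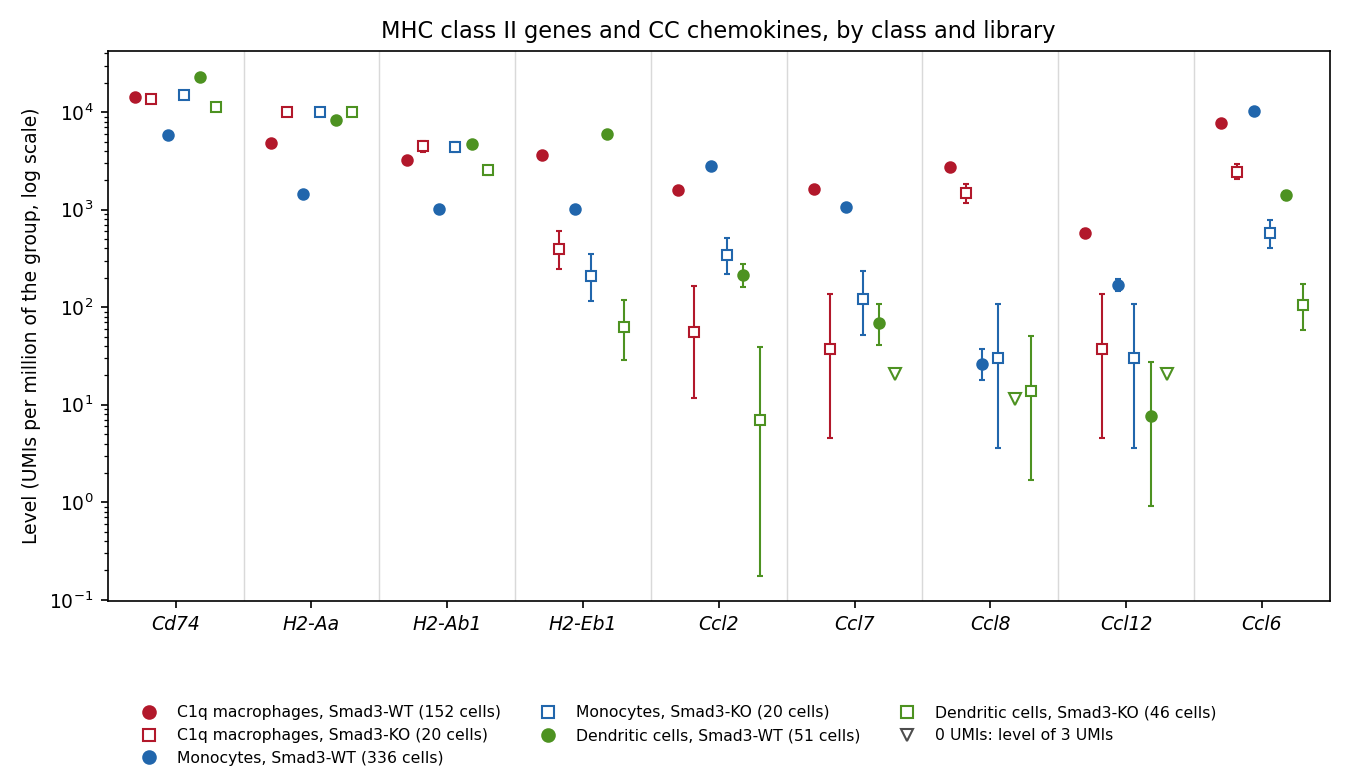
Levels of 4 MHC class II genes and 5 CC chemokines in CPM of the class, on a log scale, by class and library, drawn as in the plot of macrophage genes. Smad3-WT C1q macrophages lay between monocytes and dendritic cells for Cd74, H2-Aa, H2-Ab1 and H2-Eb1, and Ccl8 was at 2713 CPM in them against 26.2 CPM in monocytes and 0 UMIs in dendritic cells.

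Genes of the TGF-beta pathway were sparse in these cells. Of 26 genes on that list 8 had the 50 UMIs needed in the comparison with Smad3-WT monocytes. Of these 2 were higher by more than 2-fold and 0 lower, where 5.02% and 5.79% of all genes were. Their median log2 ratio was 0.03, against 0.02 over all genes. Tgfb1, the ligand, was at 319 CPM in Smad3-WT and 244 CPM in Smad3-KO members, and Tgfbr2, the type II receptor, at 100.1 CPM (75 UMIs) and 75.1 CPM (4 UMIs). Tgfbr2 was 4.08-fold higher than in Smad3-WT monocytes (2.63 to 6.50). Tgfbi, a matrix protein that TGF-beta induces, was at 819 CPM in Smad3-WT members and 451 CPM in Smad3-KO members. Smad3 had 12 UMIs in the Smad3-WT and 1 UMI in the Smad3-KO members, and the inhibitory Smad7 had 10 and 2.

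The members were not uniform. In Smad3-WT cells thinned to 1000 UMIs (144 cells), the variance of a gene's UMIs over its mean had a median of 1.17 over 732 genes. It was 17.9 for Apoe, 16.3 for Ccl5, 15.9 for Ccl8, 13.7 for Cd74 and 11.2 for Ccl7, and it was 22.5 for Col3a1, 16.03 for Col1a2 and 14.8 for Col1a1, the collagen genes of few cells. Ccl5 had a UMI in 6.94% of these cells, with up to 26 in 1 cell, and Apoe in 50% of them. Ccl8 had a UMI in 52 of these 144 cells, and 36 of the 52 (69.2%) had Ccl7 too, against 28 of 92 cells without Ccl8 (30.4%). Ccl7 and Ccl8 lie in the same chemokine cluster on chromosome 11 (Ccl7 at chr11:82045712-82047525 and Ccl8 at chr11:82115185-82116799, both on the plus strand of GRCm38). Apoe cells had Ccl8 in 55.6% against 16.7% of cells without Apoe, and Mrc1 cells in 52.7% against 25.8%. For H2-Eb1 the shares with Ccl8 were 32.6% of cells that had it and 41.8% of cells that had not. Dendritic cells of the same library, with a median of 4977 UMIs, had no Ccl8 UMI in 51 cells before thinning.

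Clustering of the 172 members gave 3 subclusters, which stay numbered here and whose genes describe them without a test. Subcluster 1 (60 Smad3-WT and 6 Smad3-KO cells) was led by Ear2, H2-DMb2, Ifi206, Lyz1, Mgl2, Vcan, Itgax and Napsa. The annotated transcript of Lyz1 shares 69.0% of its bases with Lyz2 in runs of at least 30 bases, so their reads are not safely told apart. Subcluster 1 had Cd74 at 24336 CPM and H2-Aa at 8364 CPM, but Ccl8 at 449 CPM, Apoe at 432 CPM and Pf4 at 191 CPM. Ccr2, the monocyte receptor for Ccl2, was at 581 CPM in it and 126 CPM in subcluster 2. Subcluster 2 (52 and 9 cells) was led by Tfrc, Gas6, Cbr2, Cd38, Pmp22, Mertk and Folr2, although 68% of the 25 Tfrc UMIs were in 1 cell. It had Ccl8 at 5731 CPM, Apoe at 4814 CPM, Pf4 at 3069.8 CPM and Mrc1 at 1102 CPM, and low Cd74, at 7531 CPM. Ly6c2 had 3 UMIs in its 61 cells. Subcluster 3 (40 and 5 cells) was led by Col1a2, Col1a1, Col3a1, G0s2, Lcn2 and Sfrp2, although 1 cell held 81.5% of the 81 Sfrp2 UMIs and 1 cell held 37.6%, 39.3% and 43.0% of the UMIs of Col1a2, Col1a1 and Col3a1. It had Il1b at 1591 CPM, Spp1 at 1239 CPM and G0s2 at 746 CPM. At least 2 UMIs of the neutrophil markers beyond the rule were in 34 of its 45 cells, against 5 and 3 cells of subclusters 1 and 2. Fibroblast markers were in 8 of its cells, against 1 and 2. The part of other cells or their free RNA in subcluster 3 was not tested. At a resolution of 1.0 there were 6 subclusters, and another seed gave 3 with an adjusted Rand index of 0.715.

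In Smad3-KO members, transcripts of most lipid handling genes took a larger share than in Smad3-WT members, and those of several monocyte-attracting chemokines and glycolysis genes a smaller one. Of 2234 genes with at least 50 UMIs in both libraries together, 149 were higher in Smad3-KO by more than 2-fold (6.67%) and 415 were lower (18.6%), and for 107 and 170 of these the counting interval left out 1. The median log2 ratio of all genes was -0.22, and median-of-ratios scaling, which centres the ratios on a log2 shift of -0.21, gave 235 higher and 305 lower genes. Every value of this comparison sets 1 pool of tumors against another, with Xist UMIs in the Smad3-KO members alone. The Smad3-KO side is 20 cells, of which the deepest, with 8811 UMIs, holds 16.6% of the UMIs. Values without a cell, given beside some genes, leave out the Smad3-KO cell with the most UMIs of that gene.

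Lipid handling genes had 10 of 13 higher in Smad3-KO, 0 lower and a median log2 ratio of 1.96. Apoe was at 1861 CPM in Smad3-WT and 9768 CPM in Smad3-KO, a ratio of 5.25 (4.74 to 5.81). It was also higher in Smad3-KO monocytes (1.64, 1.25 to 2.13) and had a ratio of 0.682 (0.218 to 1.83) in dendritic cells. Abca1 and Abcg1, which export cholesterol, had ratios of 4.69 (2.79 to 7.62) and 5.93 (3.09 to 10.9), and Pltp 3.54 (2.72 to 4.56), although Pltp was 9.06-fold higher in Smad3-KO monocytes too. Outside the C1q cells, over all 2378 Smad3-KO and 3339 Smad3-WT quality cells with fewer than 3 C1q UMIs, Apoe had a ratio of 3.62 (3.36 to 3.89), Abca1 5.05 (4.38 to 5.81) and Abcg1 4.30 (3.59 to 5.14). Within the cells with S100a8 and S100a9 at 1% or more they had 0.611, 1.77 and 0.981, and Abca1 and Abcg1 had 0.888 (0.236 to 2.36) and 7.34 (3.41 to 14.8) in monocytes. Higher lipid transcripts in Smad3-KO were therefore not shown to be particular to the members. Several genes rested largely on 1 cell. The deepest Smad3-KO member held 219 of the 520 Apoe UMIs, 89 of 112 of Fabp5, 26 of 34 of Gpnmb and 22 of 28 of Trem2. Without it Apoe had a ratio of 3.64 (3.20 to 4.13), while Fabp5 had a ratio of 1.08 and Trem2 went from 2.39 to 0.614. The count of 10 lipid genes was 7 without that cell and 6 without the members that carried markers of other lineages, and 2 of the 7 that still had 50 UMIs with cells thinned to 1000 UMIs before the rule. Retnla, a secreted product of alternatively activated macrophages, was at 127 CPM in Smad3-WT and 2348 CPM in Smad3-KO (18.5, 14.1 to 24.5), with 125 UMIs in 6 of the 20 cells, 70 of them in 1 cell, without which the ratio was 8.39 (5.91 to 11.8).

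Of 21 lysosomal genes, Smad3-KO had 5 higher and 0 lower. Over subclusters 1 and 2 alone 3 of 20 were higher. After thinning 1 of 19 was, against 47 of 770 genes in all (6.10%), which is near that background. Ctsb and Ctsd, lysosomal cathepsins, had ratios of 3.03 (2.68 to 3.42) and 3.31 (2.76 to 3.95), against 0.990 and 0.461 in monocytes and 1.67 and 0.390 in dendritic cells. Psap, the precursor of the saposins, had 2.45 (2.21 to 2.71), against 1.26 in monocytes and 1.12 in dendritic cells. Selenop had 3.22 (2.72 to 3.79), against 2.25 in monocytes. Over all cells that are not C1q macrophages, Selenop had nearly the same ratio, 3.16 (2.84 to 3.52), while Ctsb had 1.62 (1.56 to 1.69), Ctsd 1.37 (1.29 to 1.45) and Psap 1.54 (1.49 to 1.60). The cell with most Ctsb held 140 of its 327 Smad3-KO UMIs, and without it the ratio was 2.08 (1.77 to 2.42). By subcluster Ctsb had 0.824 (0.445 to 1.41), 2.52 (2.19 to 2.90) and 4.69 (3.48 to 6.23), and without 1 cell in each 0.672, 1.66 (1.35 to 2.02) and 2.82 (1.80 to 4.25).

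CC chemokines had 6 of 9 lower in Smad3-KO and 1 higher, with a median log2 ratio of -1.65. The same list had 6 of 9 lower and 1 higher in monocytes (median -2.69) and 4 of 8 lower and 3 higher in dendritic cells (median -1.17). Over all genes 18.6% were lower in the members, 17.1% in monocytes and 15.7% in dendritic cells, with medians of -0.22, -0.098 and -0.14. Ccl2 had 1184 UMIs in the Smad3-WT and 3 UMIs in the Smad3-KO members, levels of 1579 and 56.4 CPM and a ratio of 0.0357 (0.00735 to 0.105). Ccl7 had 1209 and 2 UMIs (0.0233, 0.00282 to 0.0843), and Ccl12 430 and 2 UMIs (0.0655, 0.00791 to 0.238). Ccl8 was at 2713 and 1484 CPM (0.547, 0.431 to 0.685), but 37 of its 79 Smad3-KO UMIs were in 1 cell, without which the ratio was 0.304 (0.218 to 0.412). Ccl4, an attractant of T and NK cells, was the 1 higher, at 467 and 1277 CPM (2.74, 2.08 to 3.56), with 29 of 68 Smad3-KO UMIs in 1 cell. Without that cell it had a ratio of 1.62 (1.13 to 2.26), within 2-fold. Cxcl9 was at 529.6 and 75.1 CPM, with 4 UMIs in Smad3-KO. Ccl2 was lower in Smad3-KO in the other classes too, where its ratio was 0.123 (0.0776 to 0.184) in monocytes and 0.0325 (0.000808 to 0.188) in dendritic cells.

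Of 8 iron and heme genes 1 was higher in Smad3-KO and 0 lower, of 5 cytokines and growth factors 0 were higher and 2 lower, and of 8 checkpoint ligands and inhibitory receptors 1 was higher and 4 lower. Over all genes 6.67% were higher and 18.6% lower. At any size of ratio, the counting interval lay above 1 for 3, 0 and 2 genes of these lists. It lay below 1 for 1, 1 and 2 genes, so the checkpoint genes did not lean either way by it. Fth1, the ferritin heavy chain, was at 11892 CPM in Smad3-WT and 22372 CPM in Smad3-KO members, a ratio of 1.88 (1.77 to 1.999), and it had 1.72 in monocytes and 2.02 in dendritic cells. Hmox1 was at 629.7 and 319 CPM (0.507, 0.293 to 0.821). Spp1, the secreted matrix protein osteopontin, was at 667 and 225 CPM (0.338, 0.173 to 0.596), and Smad3-KO monocytes had it lower as well (0.109, 0.0598 to 0.184). The cytokine gene Il1b, at 569.6 and 394 CPM, and Cd274, which encodes the checkpoint ligand PD-L1, at 80.04 and 93.9 CPM, had intervals that held 1 (0.424 to 1.07 and 0.368 to 2.89). Without the 1 cell that held most of each, Hmox1 had a ratio of 0.332, Spp1 0.202 and Il1b 0.451 (0.238 to 0.780), which for Il1b no longer held 1. Cd274 had 3 of its 5 Smad3-KO UMIs in 1 cell. Its ratio went from 1.17 to 0.494 (0.0585 to 1.86) without that cell, so its direction was not settled.

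Several genes were lower in Smad3-KO in all 3 classes. H2-Eb1 had ratios of 0.107 in the C1q macrophages, 0.206 in monocytes and 0.0104 in dendritic cells, while the other class II chain H2-Aa had 2.09, 6.98 and 1.21, and 1.58 (1.42 to 1.76) in the macrophages without the cell that held 170 of its 535 UMIs. Gapdh had 0.256, 0.125 and 0.174, Eno1, another glycolytic enzyme, 0.265, 0.174 and 0.179, and S100a10 0.101, 0.196 and 0.152. Ccl6 had 0.318, 0.0555 and 0.0739. The list of glycolysis and hypoxia genes had 8 of 16 lower in the C1q macrophages, 13 of 21 in monocytes and 9 of 10 in dendritic cells, where 18.6%, 17.1% and 15.7% of all genes were lower. Gm3839 had the highest ratio, 79.2 (37.0 to 195), in the C1q macrophages and 302 (97.6 to 1512) in monocytes, where Smad3-WT had 3 UMIs. Its annotated transcript shares 68.7% of its bases with Gapdh in runs of at least 30 bases, so their reads are not safely told apart. The cause of these library-wide differences was not tested. H2-Eb1 and S100a10 rested on 21 and 6 Smad3-KO UMIs in the members, and without 1 cell their ratios there were 0.0648 and 0.0543. Mrc1 (0.729, 0.467 to 1.09) and Cd74 (0.953, 0.883 to 1.03) had intervals that held 1, but without 1 cell they had 0.609 (0.369 to 0.952) and 0.750 (0.686 to 0.819), below 1. Pf4 was lower, at 1645 and 300.5 CPM (0.183, 0.104 to 0.298), and was so outside the members too. Smad3-WT monocytes held 1476 UMIs of it and those of Smad3-KO held 0, and its ratio was 0.0948 (0.0765 to 0.116) over all cells with fewer than 3 C1q UMIs.

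**Figure D4:**
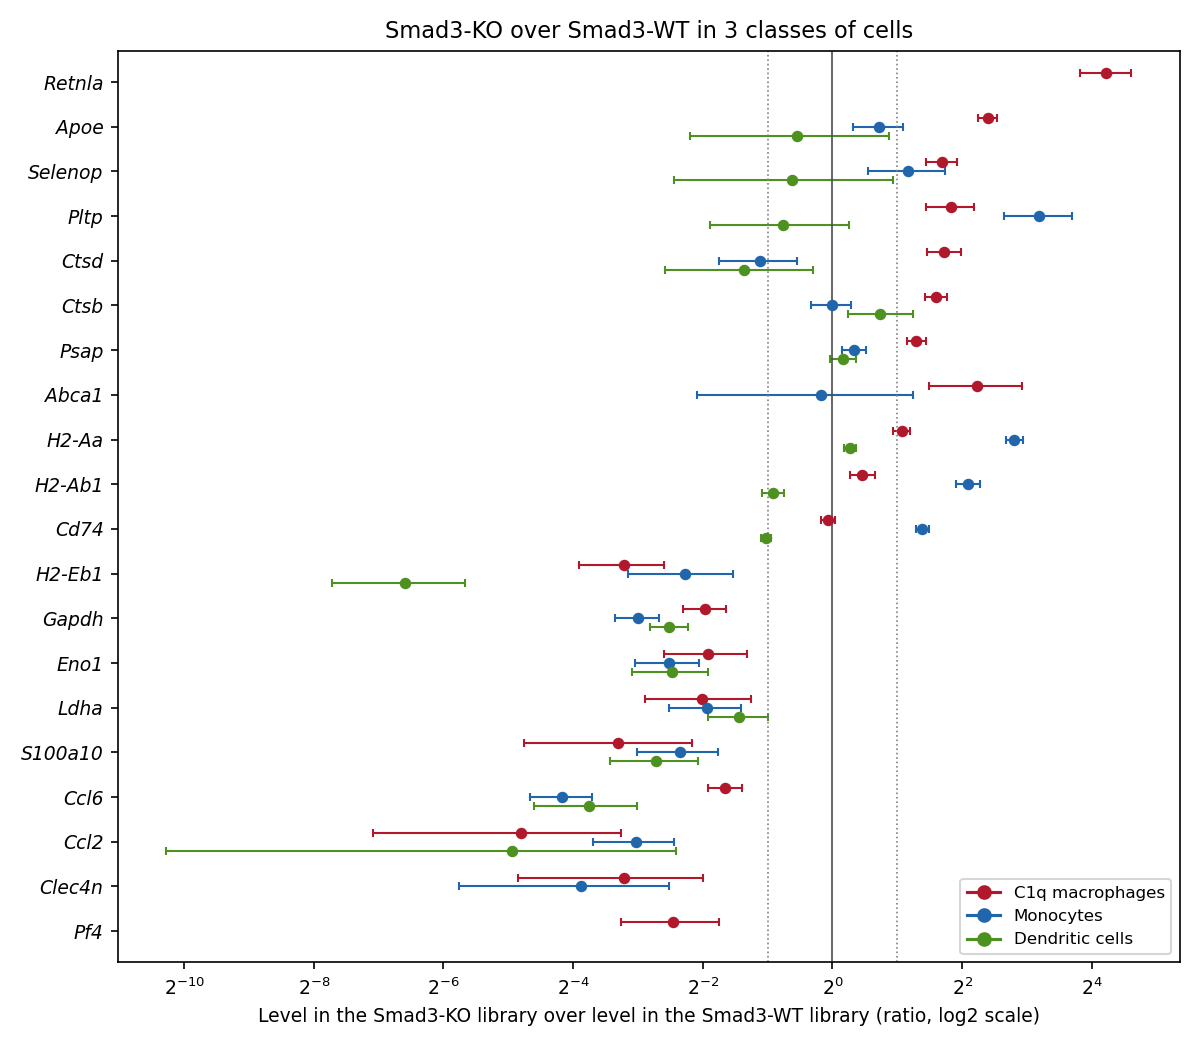
Ratio of the level in the Smad3-KO library to that in the Smad3-WT library for 20 genes in C1q macrophages, monocytes and dendritic cells, on a log2 axis with exact intervals; pairs with 0 UMIs in either library are not drawn, and dotted lines mark 2-fold. Gapdh, Eno1, S100a10, Ccl6 and Ccl2 lay below 1 in all 3 classes, while Ctsd was above 1 in the macrophages (3.31) and below 1 in monocytes and dendritic cells (0.461 and 0.390).

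Within subclusters, which held 6, 9 and 5 Smad3-KO cells, some ratios kept their direction and others rested on 1 cell. H2-Eb1 had 0.140, 0.0922 and 0.0888 (0.0107 to 0.322) in subclusters 1, 2 and 3, on 14, 5 and 2 Smad3-KO UMIs. Gapdh had 0.220, 0.279 and 0.401, and 0.165, 0.106 and 0.207 without the Smad3-KO cell of each subcluster with the most UMIs of it. Apoe had ratios of 3.13 (1.84 to 5.07), 3.19 (2.82 to 3.60) and 13.2 (10.7 to 16.2). Without that 1 cell in each they were 0.941 (0.2996 to 2.26), 1.76 (1.46 to 2.11) and 5.91 (4.23 to 8.09), so only the last stayed past 2-fold. Retnla had 9.35, 26.5 and 36.0, but all 70 of its Smad3-KO UMIs in subcluster 3 and 30 of 34 in subcluster 2 were in 1 cell each. Cd74 had 1.15 (1.05 to 1.27), 1.20 (1.05 to 1.37) and 0.306 (0.201 to 0.447), and without 1 cell in each 0.873, 0.797 and 0.274. H2-Aa had 2.02, 3.51 and 0.903 (0.590 to 1.33), with 170 of 244 UMIs of subcluster 2 in 1 cell, and without 1 cell in each 1.40 (1.17 to 1.66), 1.30 (1.01 to 1.66) and 0.482 (0.248 to 0.847). Over subclusters 1 and 2 alone, 8 of 11 lipid genes were higher in Smad3-KO by more than 2-fold, against 95 of 1621 genes in all (5.86%).

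The 20 Smad3-KO members differed among themselves. Their total UMIs ran from 615 to 8811. Lyz2 had 434 of 849 UMIs in the deepest cell and 0 to 104 in the others. H2-Aa had 170 and 129 UMIs in the next 2 cells by depth and 2 in the deepest. Ccl8 had 37, 17 and 11 UMIs in 3 cells, which had 5, 4 and 5 UMIs of Mrc1, and at most 7 in any other.

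**Figure D5:**
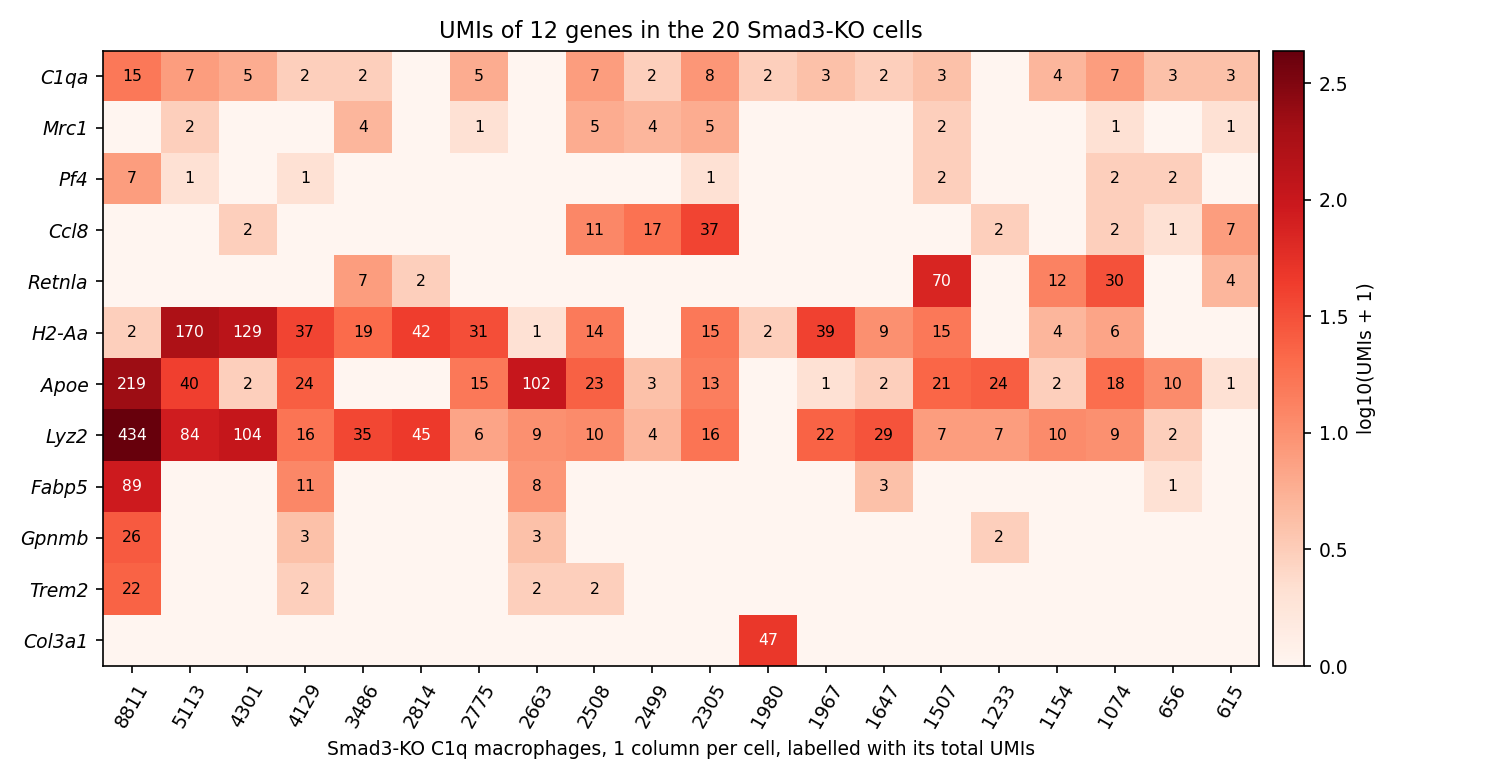
UMIs of 12 genes in each of the 20 Smad3-KO C1q macrophages, 1 column per cell ordered and labelled by its total UMIs, with colour for log10(UMIs + 1) and the UMI count written where it is above 0. The deepest cell, at 8811 UMIs, carries most of Fabp5, Gpnmb and Trem2, and the Col3a1 UMIs lie in 1 cell.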

How the data were processed

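Single cells of 2 pooled libraries were analysed, 1 of Smad3-WT and 1 of Smad3-KO tumors. The authors counted UMIs with Cell Ranger 3.0.2 on the mm10 build, per the file headers and the submitters' processing notes, and deposited raw counts per gene and barcode for both libraries in 1 matrix. The deposited table of average signal per gene in each library was used only to check which barcode suffix belongs to which library (largest differences 3.58e-08 and 4.91e-09). The authors' own comparison columns, which hold fold changes and p-values, and their cluster table were not used, and 0 columns of samples were left unmapped.

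Cells with at least 200 genes, more than 500 UMIs and under 10% mitochondrial UMIs were kept with no upper limit, and no doublets were removed. Members also had to pass an upper limit on the UMIs of 1 more gene, and that gene, 1 marker, and the comparison and alternatives that need them are not reported here. Monocytes had under 3 C1q UMIs, at least 3 of Ly6c2 and Ccr2, none of the dendritic genes, under 2 of T or NK genes (Cd3g, Trac, Trbc2, Nkg7, Klrb1c) and under 3 each of granule genes (Camp, Ngp, Ltf) and of Col1a1 with Dcn. Dendritic cells had under 3 C1q UMIs and at least 2 UMIs of the dendritic genes. The limits on S100a8, tumor, lymphoid and cycling genes held for both. UMIs were summed per class, and ratios of CPM have exact intervals from the split of UMIs. Ratios are called at 2-fold for genes with at least 50 UMIs over both groups, and a group at 0 UMIs is set to 3 UMIs over the group. Rule genes were left out of the gene lists. Subclusters came from Leiden clustering with scanpy 1.11.5 and igraph 0.11.9 on 2000 variable genes, 30 components, 15 neighbours and a resolution of 0.5. Intervals were computed with scipy 1.17.1 under Python 3.11.15 and numpy 2.4.6, tables with pandas 2.3.3 and figures with matplotlib 3.10.9, and the ratio step was tested on simulated data.

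Members and the 22 gene lists (359 genes, of which 2 are not named in the matrix) were chosen with earlier results of these data known. Genes named are list and marker genes, the 15 highest and lowest ratios of each comparison (at least 50 UMIs between libraries, 200 between Smad3-WT classes), and the 10 genes leading the spread or each subcluster. Alternatives covered the cell filters, the limit on C1q, depth, scaling, weighting, minimum UMIs and markers of other lineages. Gene positions are from GENCODE on GRCm38, which is mm10.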

Additional observations from a re-analysis of the deposited data

How the results depend on the processing

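With 1 library per genotype and classes made from the counts, no value has a replicate error, and depth limits the 20 Smad3-KO cells most. No paired analysis was possible because each genotype was 1 library. Of 1243 values for 93 gene and comparison pairs under 15 settings, 1190 counted as the same, 49 as moved and 4 as reversed. A ratio past 2-fold counted as the same if it kept its side of 1 and stayed past 2-fold, however far it moved, or inside its main interval. A ratio within 2-fold counted as the same if it stayed inside that interval, on either side of 1, and could not count as reversed. The reversed ratios were Trem2 at 0.614 in Smad3-KO over Smad3-WT without the deepest Smad3-KO member and, against monocytes after thinning, Ccl24 at 1.13, Hmox1 at 1.01 and Itgax at 0.640. Removing the deepest member and taking subclusters 1 and 2 alone were chosen after seeing the data, as were the settings without collagen-rich members, with more than 300 UMIs and without the fibroblast limit, and the ratios without the Smad3-KO cell that held most of a gene.

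The Smad3-WT share of 3.90% became 3.28% at 6 or more C1q UMIs, 10.4% (248 of 2395 cells) with cells thinned to 1000 UMIs before the rule, where the Smad3-KO share was 1.01% (16 of 1587), and 2.56% without members carrying markers of other lineages, which took the Smad3-KO share to 0.411%. Thinning before the rule changed which cells are members, 248 against 152 in Smad3-WT, as well as their depth. Between the libraries, genes higher and lower in Smad3-KO were 47 and 150 with thinning, 569 and 695 at 20 UMIs per gene, and 2233 and 695 with no minimum. With no minimum, a gene with 1 Smad3-KO UMI and 0 Smad3-WT UMIs was already past 2-fold, and the mirror case was not called. The 2233 genes therefore cannot be read as a difference between the cells. Higher genes were 70 without other lineages, 235 under median-of-ratios scaling and 95 in subclusters 1 and 2. Lipid genes higher were 2 with thinning and 6 without other lineages. Lysosomal genes higher were 1 with thinning and 3 in subclusters 1 and 2, and glycolysis genes lower were 5 with thinning. Against monocytes, higher and lower genes were 100 and 124 with thinning, 589 and 432 at 20 UMIs, and 1870 and 748 with no minimum, and with thinning 3 scavenger genes were higher and 7 interferon and 3 glycolysis genes lower. Against dendritic cells they were 208 and 54 with thinning, 920 and 441 at 20 UMIs, and 1612 and 1499 with no minimum. Matrix genes higher were 5 with thinning and 6 without other lineages, and NF-kB genes lower were 0 with thinning. Thinning and leaving out cells reduce the genes that reach 50 UMIs, and a lower minimum adds sparse genes. Resolution 1.0 gave 6 subclusters. What else moved these counts was not tested.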
